A study of Mus musculus with 18 samples.

Results

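The comparison described here sets the left ventricle of late-pregnant mice (LP) against that of mid-pregnant mice (MP). Its members were chosen by array title and comprise 6 of the 18 arrays of the series, 3 LP and 3 MP, with all 45037 probe sets that are not array controls. No array from non-pregnant mice enters the difference, though all 18 arrays set its error. LP hearts were taken at gestation days 18 to 19 and MP hearts at gestation day 11, from wild type female C57Bl/6 mice of 3 to 4 months. Each array was hybridised with equal amounts of left ventricular RNA pooled from 2 to 3 hearts, so an array is a pool and not an animal, and the p-values measure the spread between pools. The other arrays used for levels come from sedentary virgin females in diestrus (NP/Sed) and from females within 12 hours of giving birth (0PP). The remaining 6 arrays, from females given a wheel for voluntary running over 7 or 21 days (7EX and 21EX, 3 arrays each), enter only the estimate of spread. Atria, right ventricle and visible connective and vascular tissue had been trimmed away, and the hearts had been drained of blood in cold saline.

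The maternal heart enlarges over pregnancy as blood volume and cardiac output grow. It takes most of its energy from long-chain fatty acids, which are carried into the cell by transport proteins, bound to carnitine to enter the mitochondrion and shortened by beta-oxidation, and many of the genes for these steps are targets of the fatty acid sensing PPAR nuclear receptors. Late in pregnancy maternal metabolism shifts so that fat is mobilised from stores and glucose is spared for the fetus. The collagens that fill the space between cardiac muscle cells are made mainly by fibroblasts, and red cell genes reach a heart sample mainly with blood.

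Values are log2 intensities after robust multiarray averaging (RMA), in which a step of 1 is a doubling. A gene "rose" or "fell" in LP where at least 1 of its probe sets differed from MP at an adjusted p under 0.05 by limma's moderated test, with Benjamini-Hochberg adjustment over all 45037 probe sets. Where a gene has several probe sets, the values printed are those of the one with the smallest p, unless stated otherwise. Of 18193 genes tested 467 passed (2.57%), of which 279 rose (1.53%) and 188 fell (1.03%). Each count of list members below is to be read beside these shares. The 75% change of the study's call rule left 50 genes (0.275%), 21 higher (0.115%) and 29 lower (0.159%). LP and MP arrays lay a mean of 0.1728 log2 units per probe set apart over 9 array pairs (0.1481 to 0.1985), against 0.1549 between LP arrays and 0.1447 between MP arrays.

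Pools 3 of LP and 1 of MP stood apart from their own groups. LP-3 had 104 probe sets more than 1 log2 unit above both other LP arrays, while LP-1 had 6 and LP-2 had 5. MP-1 had 42 such probe sets, MP-2 had 5 and MP-3 had 3. Mt2, a metallothionein, shows LP-3 plainly, with 10.75, 10.58 and 12.84 in LP, against 10.20, 10.27 and 10.17 in MP. Adipoq, the adipocyte hormone adiponectin, shows MP-1, with 5.57, 4.18 and 5.42 in LP, against 7.42, 6.27 and 5.05 in MP. Neither gene passed the test (adjusted p = 0.121 and 0.205). The signal of the beta-actin control at its 3' end over that at its 5' end, a sign of RNA integrity, was 1.263, 1.174 and 1.276 in LP, against 1.316, 1.322 and 1.348 in MP, so it separated the groups too. The same log2 measure of the Gapdh control also separated them, with -0.054, -0.013 and -0.022 in LP, against 0.035, 0.025 and 0.063 in MP. With the beta-actin measure as a covariate 169 genes passed in place of 467, and 38 in place of 50 were called with the fold limit. The part of RNA integrity in the results below was not tested beyond these counts and those given with some lists and genes.

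**Figure D1:**
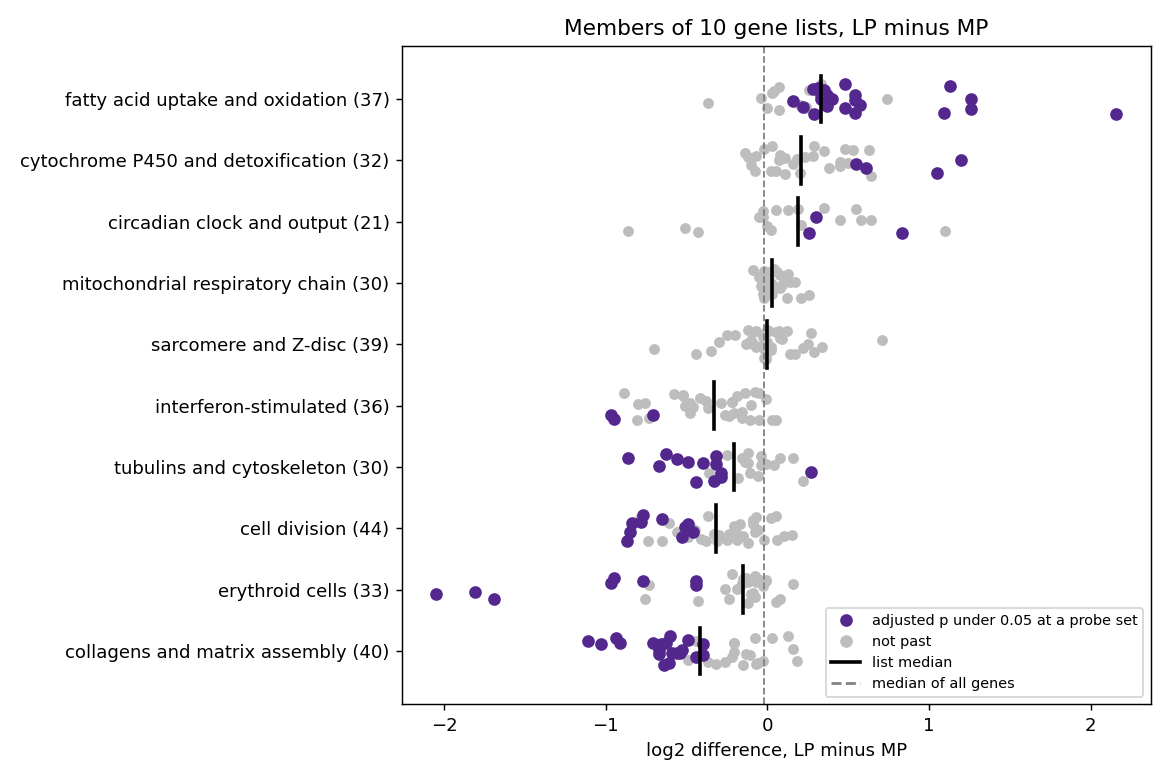
Log2 difference, LP minus MP, of each measured member of 10 gene lists (number of genes in parentheses). Each point is 1 gene at its probe set of highest mean, purple where any probe set of the gene passed, the black bar is the list median and the dashed line the median over all genes, -0.02. Fatty acid genes lie to the right (median 0.33), collagen genes to the left (median -0.42), and the respiratory chain and sarcomere lists lie about the line with no member past the test.

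Genes of fatty acid uptake and oxidation rose together in LP. Of 37 measured members 24 rose and 0 fell, against 1.53% and 1.03% of all genes, and the median difference over the list was 0.33, against -0.02 over all genes. At the probe set of highest mean the lowest LP array was above the highest MP array in 32 of the 37, against 10.6% of all genes, and the reverse held in 1. Among the 24 that rose the difference lay between 0.28 and 2.16. The mean level of the list was 11.16, 11.15 and 11.31 in LP, against 10.85, 10.70 and 10.77 in MP.

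The peroxisomal bifunctional enzyme Ehhadh, a textbook PPAR alpha target, had the smallest p of the list. It measured 7.58, 7.60 and 7.53 in LP, against 6.63, 6.46 and 6.36 in MP, which is 2.13-fold higher (log2 difference 1.09, SE 0.11, adjusted p = 7.64e-05). Its promoter is shown because the list it leads was searched for the PPAR element in its strict form, a pair of AGGTCA direct repeats with 1 base of any kind between them. The window runs from 250 bases before to 50 bases after the RefSeq gene start on build GRCm38.p6, minus strand, chr16:21787785-21788084.
Ehhadh: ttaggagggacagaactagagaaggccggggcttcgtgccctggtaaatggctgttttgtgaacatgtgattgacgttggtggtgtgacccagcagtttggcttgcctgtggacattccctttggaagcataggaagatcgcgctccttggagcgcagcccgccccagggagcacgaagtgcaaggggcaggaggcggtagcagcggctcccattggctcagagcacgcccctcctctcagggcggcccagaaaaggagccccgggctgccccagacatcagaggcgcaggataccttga
No match stands in this window, nor in that of any other of the 33 list members with a promoter in the table. Searched on both strands, this strict form is in 13 of 32851 promoters (0.0396%), so its absence here says only that these letters are not in these windows.

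Angptl4 had the largest rise among the genes that passed. It encodes a secreted inhibitor of lipoprotein lipase and measured 8.69, 8.51 and 9.93 in LP, against 7.37, 6.57 and 6.72 in MP (4.46-fold higher, log2 difference 2.16, SE 0.39, adjusted p = 0.00798). The arrays did not overlap, LP-3 was the highest, and 1 of its 2 probe sets passed. The call was lost without MP-3, with the beta-actin covariate and with only the LP and MP arrays in the fit. Pdk4, the kinase that switches off pyruvate dehydrogenase and so spares glucose, measured 12.99, 12.73 and 13.44 in LP, against 12.21, 11.23 and 11.96 in MP (2.39-fold higher, adjusted p = 0.0431). Its call was lost without LP-1, LP-3, MP-2 or MP-3, with the beta-actin covariate and with only the LP and MP arrays in the fit.

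Acyl-CoA thioesterases, which release free fatty acid from coenzyme A, rose as well. Acot1, the cytosolic form, measured 8.52, 8.43 and 8.87 in LP, against 7.61, 6.97 and 7.48 in MP (log2 difference 1.26, SE 0.21, adjusted p = 0.00417). Acot2, the mitochondrial form, measured 8.23, 7.92 and 8.68 in LP, against 7.33, 6.85 and 7.06 in MP (log2 difference 1.20, adjusted p = 0.000899), and 0.54 at the brighter of its 2 probe sets (adjusted p = 0.00936). These genes are close copies of each other, so their probes may share signal. The mitochondrial uncoupling protein Ucp3 measured 7.12, 6.96 and 7.57 in LP, against 6.41, 6.19 and 5.85 in MP (2.09-fold higher, adjusted p = 0.00345), and passed at both its probe sets.

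Every step from uptake to beta-oxidation had members that rose by less. Among transporters, the fatty acid translocase Cd36 differed by 0.37, the acyl-CoA forming transporter Slc27a1 by 0.48 and the lipoprotein receptor Vldlr by 0.49. Entry into the mitochondrion was represented by Cpt1a (0.57), Cpt2 (0.31) and the carnitine carrier Slc25a20 (0.54). Within beta-oxidation the acyl-CoA dehydrogenases Acadm, Acadl and Acadvl differed by 0.28, 0.35 and 0.38, the trifunctional protein subunit Hadha by 0.37, the hydroxyacyl-CoA dehydrogenase Hadh by 0.41 and the thiolase Acaa2 by 0.79. Acaa2 measured 11.93, 11.83 and 11.94 in LP, against 11.20, 11.04 and 11.09 in MP, with all 3 of its probe sets past the test. Decr1, needed to oxidise polyunsaturated fat, measured 12.11, 12.10 and 12.23 in LP, against 11.67, 11.58 and 11.73 in MP. Lipid droplet genes were represented by the lipase Pnpla2 (0.54) and the droplet coat protein Plin5 (0.44).

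The 13 members that did not pass included the receptors and the coactivator of the pathway. Ppara differed by 0.03, Ppard by 0.00 and Ppargc1a by -0.37 (adjusted p = 0.958, 0.996 and 0.532). Fabp3, the fatty acid binding protein of cardiac muscle, differed by 0.07 and lipoprotein lipase, Lpl, by 0.04. Plin2, another droplet coat protein, differed by 0.74 (adjusted p = 0.0617). Leaving out 1 array in turn left between 10 and 22 members higher and 0 lower: 10 without MP-3, 13 without LP-3 and 13 without MP-2. With the beta-actin covariate 10 rose and 1 fell, and with only the LP and MP arrays in the fit 5 rose.

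**Figure D2:**
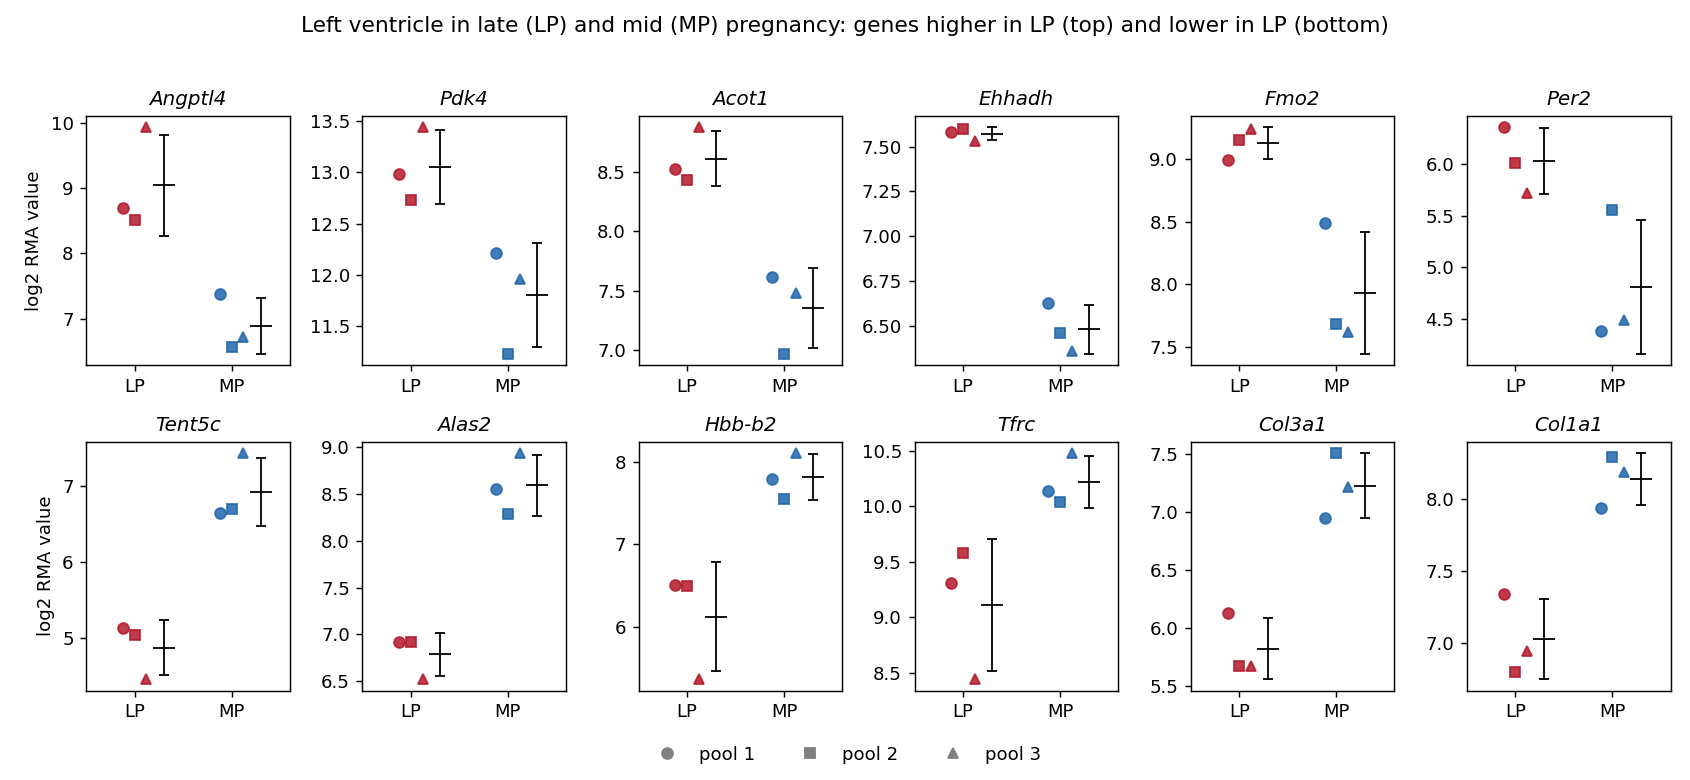
Log2 RMA value of 12 genes on the 3 LP arrays (red, left) and the 3 MP arrays (blue, right), with a marker for each pool and the mean ± SD beside the points. The upper genes are higher on every LP array than on any MP array and the lower genes are lower on every one; vertical axes differ between genes and do not start at 0.

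Neighbouring pathways of fuel use moved less and in part. In the list for glucose transport, glycolysis and glycogen, 2 of 31 members rose and 1 fell. Txnip, an inhibitor of glucose uptake, measured 11.33, 11.47 and 11.69 in LP, against 10.93, 10.53 and 10.53 in MP (log2 difference 0.83, adjusted p = 0.0477), a call lost without any of LP-1, LP-2, LP-3, MP-2 or MP-3. Pdk1, a second pyruvate dehydrogenase kinase, differed by 0.32, and the glycogen targeting subunit Ppp1r3c fell by 0.37. Both calls were lost without LP-3 or any 1 MP array, that of Pdk1 also without LP-1 and that of Ppp1r3c also without LP-2. Of 27 lipogenesis and sterol genes 6 rose and 1, the elongase Elovl5, fell (-0.33), with 14 of the 27 differences negative and a median of -0.09. The desaturases Scd1 and Scd2 differed by -0.58 and -0.32 (adjusted p = 0.157 and 0.199). Those that rose included Gpam, the first enzyme of triglyceride synthesis (0.62), Mid1ip1, an activator of acetyl-CoA carboxylase (0.76), and Acacb, the carboxylase whose product blocks Cpt1 (0.37). The Mid1ip1 and Acacb calls were lost without LP-1, LP-3, MP-1 or MP-3, that of Mid1ip1 also without LP-2 and that of Acacb also without MP-2. Mlycd, which breaks that product down, also rose, with 9.58, 9.54 and 9.56 in LP, against 9.16, 8.92 and 8.98 in MP. Of the 30 respiratory chain genes 0 passed, which is near the share of all genes for so short a list, and their median was 0.03. All LP arrays were above all MP arrays in 11 of the 30 at the probe set of highest mean, against 10.6% of all genes, and below them in 2, and the list level was 13.34 to 13.39 in LP, against 13.31 to 13.33 in MP.

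Enzymes that oxidise or conjugate small molecules included 4 that rose among 32 measured and 0 that fell, against 1.53% and 1.03% of all genes. Fmo2, a flavin monooxygenase, measured 8.99, 9.15 and 9.24 in LP, against 8.49, 7.68 and 7.62 in MP (2.29-fold higher, log2 difference 1.20, adjusted p = 0.00289), and 4 of its 5 probe sets passed. Inmt, an amine methyltransferase, measured 7.48, 7.50 and 7.84 in LP, against 7.04, 6.26 and 6.36 in MP (log2 difference 1.05, adjusted p = 0.00496). In both genes MP-1 was the highest MP array. Ephx2, the soluble epoxide hydrolase that inactivates epoxides of arachidonic acid, differed by 0.55, and the fatty acid omega-hydroxylase relative Cyp4b1 by 0.61. Leaving out 1 array in turn left 3 to 6 members of this list higher and 0 lower, 3 without LP-3 and 3 without MP-3. The count was 3 with the beta-actin covariate and 1 with only the LP and MP arrays in the fit. Among 21 antioxidant genes 3 rose: catalase, Cat (0.45), the glutathione synthesis subunit Gclm (0.69) and Sod1 (0.66), the last at a dim probe set whose brightest counterpart differed by 0.11 (adjusted p = 0.512). The calls of Cyp4b1, Cat and Gclm were lost without LP-3 or MP-3.

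Of 21 genes of the circadian clock and its output, 3 rose in LP and 0 fell, against 1.53% and 1.03% of all genes. The clock is a feedback loop in which Bmal1 (gene Arntl) and Clock drive the Per and Cry repressors. Per2 measured 6.35, 6.01 and 5.72 in LP, against 4.39, 5.55 and 4.49 in MP (2.32-fold higher, adjusted p = 0.0150). The brightest of its 3 probe sets differed by 0.30 (adjusted p = 0.425), and MP-2 came close to the LP arrays. Per3 measured 6.63, 6.72 and 6.41 in LP, against 5.62, 6.18 and 5.49 in MP (log2 difference 0.82, adjusted p = 0.00856), at 1 of 6 probe sets. Rora, an activator of Arntl, differed by 0.61 at 1 of 9 probe sets. The Per2 call was lost without LP-1, MP-1 or MP-3 and the Per3 call without MP-3.

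The promoter of Per3 is printed because, of the 2 clock genes that rose and have a promoter in the table, it alone held a searched clock element. The search used the E-box CACGTG, bound by Bmal1 and Clock, and the D-box TTATGNAA, bound by Dbp, Tef and Hlf, on both strands. Capitals mark the D-box, which occurs 2 times in the window on GRCm38.p6, minus strand, chr4:151044616-151044915.
Per3: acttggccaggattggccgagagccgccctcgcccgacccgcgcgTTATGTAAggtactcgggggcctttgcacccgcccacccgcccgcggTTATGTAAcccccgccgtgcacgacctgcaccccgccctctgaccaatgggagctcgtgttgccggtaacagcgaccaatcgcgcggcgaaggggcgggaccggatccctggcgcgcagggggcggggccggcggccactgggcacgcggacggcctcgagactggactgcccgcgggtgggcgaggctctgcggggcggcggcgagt
The D-box letters are in 3.38% of all promoters and the E-box letters in 7.15%, and among the 18 clock genes with a promoter 2 had the first and 5 the second. A match of this kind describes the sequence and not the use of the site.

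Other clock genes did not pass. Arntl measured 6.40, 5.89 and 6.71 in LP, against 7.55, 6.50 and 7.53 in MP (log2 difference -0.86, adjusted p = 0.150), with MP-2 below LP-3. Dbp, an output factor, differed by 1.10 with a standard error of 0.51 (adjusted p = 0.357). The hour at which hearts were taken is not given in the sources used here and cannot be told apart from stage. The 3 calls of the list fell to 0 without MP-3 and to 1 without LP-1, were 5 higher and 1 lower without MP-2, and were 2 with the beta-actin covariate and 0 with only the LP and MP arrays in the fit.

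Red cell genes were lower in LP. Of 33 measured erythroid genes 8 fell and 0 rose, against 1.03% and 1.53% of all genes, and 6 of the 8 passed the fold limit too. The list median was -0.15. Isg20, 1 of the 8 and of the 6, is also 1 of the 3 falls in the interferon-stimulated list below. The mean level of the list was 5.89, 5.85 and 5.84 in LP, against 6.22, 6.15 and 6.38 in MP. NP/Sed arrays gave 5.87, 5.88 and 5.85 and 0PP arrays 6.01, 5.98 and 6.00, so MP was the stage with the highest level of this list. In RNA from whole ventricle, fewer red cells and less RNA per cell cannot be told apart.

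Alas2, the first enzyme of heme synthesis in red cell precursors, had the smallest adjusted p of all genes in the comparison. It measured 6.92, 6.92 and 6.52 in LP, against 8.56, 8.29 and 8.94 in MP (3.51-fold lower, log2 difference -1.81, SE 0.13, adjusted p = 1.62e-06). Its promoter is shown because it carries the erythroid element AGATAA, the letters bound by Gata1, searched on both strands. Capitals mark the match, which reads TTATCT on the strand printed, in the window on GRCm38.p6, plus strand, chrX:150547167-150547466.
Alas2: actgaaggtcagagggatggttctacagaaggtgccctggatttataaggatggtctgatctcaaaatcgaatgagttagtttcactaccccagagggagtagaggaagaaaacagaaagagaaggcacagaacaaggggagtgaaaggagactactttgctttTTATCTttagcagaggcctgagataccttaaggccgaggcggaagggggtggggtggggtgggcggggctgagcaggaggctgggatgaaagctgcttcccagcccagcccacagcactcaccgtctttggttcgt
These letters are in 11.2% of all promoters and in 11 of the 26 erythroid genes that have one. Of the 8 genes that fell, 5 have a promoter in the table, and 2 of those, Alas2 and Isg20, hold the match.

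Tent5c, a poly(A) polymerase abundant in red cell precursors, had the largest fall among the genes that passed. It measured 5.13, 5.04 and 4.46 in LP, against 6.64, 6.69 and 7.43 in MP (4.13-fold lower, log2 difference -2.05, SE 0.17, adjusted p = 7.6e-06). Hbb-b2, a beta-globin, measured 6.51, 6.50 and 5.36 in LP, against 7.79, 7.55 and 8.11 in MP (3.23-fold lower, adjusted p = 0.000899), at a probe set that can also match other beta-globins. Groups did not overlap in either gene, LP-3 was lowest and MP-3 highest in both.

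Further members with smaller falls do different jobs in the red cell. Bpgm, which makes the bisphosphoglycerate that loosens oxygen from hemoglobin, measured 6.20, 6.07 and 5.98 in LP, against 6.87, 6.71 and 7.18 in MP, and passed at all 3 probe sets. Slc4a1, the band 3 anion exchanger of the membrane, measured 4.08, 3.88 and 3.73 in LP, against 4.59, 4.27 and 5.70 in MP, with MP-3 far above the rest, and its call was lost without MP-3 or any 1 LP array. The mitochondrial iron importer Slc25a37 and the ubiquitin ligase Mkrn1 each fell by 0.44. Hba-a1 was near the floor of the array at its single-gene probe set, at 3.54, 3.61 and 3.40 in LP, against 3.73, 3.55 and 3.72 in MP (adjusted p = 0.396). Counts of members that fell ran from 6 to 8 on leaving out an array in turn, with 6 under the beta-actin covariate and 3 with only the LP and MP arrays in the fit.

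Iron genes moved both ways. Tfrc, the transferrin receptor that brings iron into cells, measured 9.31, 9.58 and 8.44 in LP, against 10.14, 10.04 and 10.48 in MP (2.16-fold lower, adjusted p = 0.00772), at 1 of 3 probe sets. Slc40a1, ferroportin, the exporter of iron, measured 8.33, 8.30 and 8.50 in LP, against 7.78, 7.63 and 7.51 in MP (log2 difference 0.73, adjusted p = 0.00289), and passed at both its probe sets. Ceruloplasmin, Cp, which oxidises exported iron, differed by 0.64 at a probe set that passed, and by 0.41 at its brightest (adjusted p = 0.109). The Tfrc call was lost without MP-3, the Cp call without LP-3 or MP-3.

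Collagens and matrix assembly genes fell as a group. Of 40 measured members 20 fell and 0 rose, against 1.03% and 1.53% of all genes, and the list median was -0.42. At the probe set of highest mean the highest LP array was below the lowest MP array in 24 of the 40, against 2356 of all 18193 genes (13%), and the reverse held in 1. Among the 20 that fell the difference lay between -1.40 and -0.40. The mean level of the list was 8.60, 8.47 and 8.52 in LP, against 8.84, 9.03 and 8.93 in MP.

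Col3a1, one of the fibrillar collagens, which form the tensile fibres of the heart, had the largest fall of the list. It measured 6.13, 5.67 and 5.67 in LP, against 6.95, 7.51 and 7.22 in MP (2.65-fold lower, log2 difference -1.40, SE 0.16, adjusted p = 0.000246), and at its brighter probe set the difference was -1.03 (adjusted p = 0.000682). Col1a1 measured 7.34, 6.80 and 6.95 in LP, against 7.94, 8.29 and 8.19 in MP (2.16-fold lower, adjusted p = 0.000530), and its partner chain Col1a2 measured 8.25, 7.96 and 7.92 in LP, against 8.73, 9.14 and 8.95 in MP (1.86-fold lower). The regulators of fibre width, Col5a1 and Col5a2, differed by -0.60 and -0.95.

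Other matrix classes fell with them. Col14a1, which sits on collagen fibres, measured 6.60, 6.31 and 6.27 in LP, against 7.09, 7.76 and 7.66 in MP (2.16-fold lower), and Col15a1, a collagen near basement membranes, measured 7.73, 7.57 and 7.32 in LP, against 8.27, 8.68 and 8.51 in MP. The chains of the basement membrane, Col4a1 and Col4a2, differed by -0.59 and -0.40, and those of the microfibrils of collagen VI, Col6a1, Col6a2 and Col6a3, by -0.53, -0.67 and -0.67. Fibre processing was represented by the crosslinking enzyme Loxl1 (-0.61) and the procollagen cleavage enhancer Pcolce (-0.47), and the non-collagen matrix by Bgn (-0.76), Sparc (-0.48), Hspg2 (-0.44) and elastin, Eln (-0.60). Mfap4, an elastic fibre protein outside the list, measured 6.54, 6.26 and 6.75 in LP, against 7.36, 7.63 and 7.59 in MP (2.01-fold lower, adjusted p = 0.00362).

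Matrix proteases gave a smaller share, with 3 of 31 members lower and 1 higher. Mmp2, a gelatinase, measured 8.55, 8.45 and 8.61 in LP, against 8.96, 9.27 and 9.17 in MP, and its activator Mmp14 differed by -0.45. Of 18 fibroblast markers 4 fell and 0 rose: Col1a1, Col1a2, the matrix protein Dpt (-0.35) and Pi16 (-0.55), of which the calls of Dpt and Pi16 were lost without LP-2, LP-3, MP-2 or MP-3. The fibroblast list, which shares both collagens with the matrix list, had a mean level of 8.85, 8.73 and 8.82 in LP, against 8.87, 9.10 and 8.89 in MP, and a median difference of -0.09. The part of fibroblast number in the collagen result was not tested. Between 14 and 19 collagen list members fell when 1 array was left out, 14 of them without MP-3. The beta-actin covariate left 16, and a fit of the LP and MP arrays alone left 6.

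Cell division genes fell in LP. Of 44 measured members 10 fell and 0 rose, against 1.03% and 1.53% of all genes, with a list median of -0.32. The mean level was 5.09, 5.04 and 5.01 in LP, against 5.31, 5.51 and 5.37 in MP. Cdk1, the kinase that drives entry into mitosis, measured 5.11, 5.41 and 5.31 in LP, against 5.99, 6.28 and 5.91 in MP (1.72-fold lower, adjusted p = 0.00614). Its cyclin partners Ccna2 and Ccnb2 differed by -0.87 and -0.84. Ccna2 measured 4.77, 4.79 and 4.53 in LP, against 5.50, 5.61 and 5.59 in MP. At the probe set of highest mean all LP arrays were below all MP arrays in 28 of the 44 members, against 2356 of all 18193 genes (13%).

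The others that fell belong to the spindle and its exit from mitosis: Prc1 (-0.53), Nusap1 (-0.51), Cenpe (-0.49), Aspm (-0.46), Cks2 (-0.69) and the ubiquitin enzyme Ube2c (-0.85). The G1 cyclin Ccnd1 measured 8.84, 8.77 and 8.55 in LP, against 9.14, 9.66 and 9.32 in MP. Most of these probe sets read near the array median of about 5, where signal is low, and which cells of the ventricle express them was not measured. Only 2 members fell without LP-3 and 2 without MP-3, 5 without MP-2, 6 without LP-1, 5 with the beta-actin covariate and 2 with only the LP and MP arrays in the fit.

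Tubulins and cytoskeletal genes showed 11 falls and 2 rises among 30 members, against 1.03% and 1.53% of all genes. Tmsb10, which sequesters actin, measured 9.25, 9.05 and 9.14 in LP, against 9.73, 10.20 and 10.06 in MP (1.80-fold lower, adjusted p = 0.00270), and 3 of its 5 probe sets passed. Its relative Tmsb4x differed by -0.32. The tubulins that fell were Tuba1a (-0.49), Tuba4a (-0.52), Tuba8 (-0.60), Tubb2a (-0.63), Tubb2b (-0.67) and Tubb5 (-0.39), while the microtubule plus-end protein Clip1 differed by 0.57. Tubb6 counts as higher through 1 of its 2 probe sets (0.36) and differed by -0.29 at the brighter one (adjusted p = 0.381). Vimentin, Vim, the intermediate filament of non-muscle cells, measured 11.08, 10.87 and 10.81 in LP, against 11.39, 11.62 and 11.44 in MP. Leaving out 1 array in turn left 2 to 11 members lower: 2 without LP-3, 2 without MP-3, 5 without MP-2, 6 without LP-2 and 7 without LP-1. With the beta-actin covariate 5 fell, and with only the LP and MP arrays in the fit 1 did.

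Interferon-stimulated genes split the LP pools. Of 36 measured members 3 fell (Isg20, Ifi27l2a and Ifi27) and 0 rose, against 1.03% and 1.53% of all genes. Of the 36 differences 34 were negative, with a median of -0.33. The mean level of the list was 6.97, 6.94 and 7.72 in LP, against 7.47, 7.63 and 7.67 in MP. LP-1 and LP-2 thus lay below all MP arrays and LP-3 above them. The list of interferon-gamma-inducible GTPases and antigen presentation showed the same array apart, at 8.10, 7.97 and 9.25 in LP, against 8.34, 8.65 and 8.74 in MP, and Gbp6 of that list measured 9.78, 9.47 and 11.12 in LP, against 9.37, 9.31 and 9.66 in MP.

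Without LP-3, 9 interferon-stimulated genes passed, all lower, 6 of which did not pass with it. Rsad2, an antiviral enzyme, measured 8.56, 8.59 and 9.42 in LP, against 9.52, 9.50 and 9.84 in MP, with a log2 difference of -0.76 over all arrays (adjusted p = 0.0635) and of -1.05 without LP-3 (adjusted p = 0.00766). Bst2, which tethers virus particles, measured 7.46, 7.40 and 8.19 in LP, against 8.37, 8.69 and 8.65 in MP, and differed by -1.14 without LP-3. The number lower was 1 without LP-1, LP-2 or MP-3 and 2 with the beta-actin covariate, and the calls of Ifi27 and Ifi27l2a were lost without LP-1, LP-2 or MP-3 (that of Ifi27l2a also without MP-1 or MP-2). For the interferon-gamma list the number lower was 2 with all arrays, 8 without LP-3, among them the immunoproteasome subunits Psmb8, Psmb9 and Psmb10, and 4 without MP-1. It was 1 without MP-2 and 0 without LP-1, LP-2 or MP-3, with the beta-actin covariate or with only the LP and MP arrays in the fit. B2m, the light chain of class I molecules, measured 12.45, 12.34 and 12.76 in LP, against 12.88, 13.10 and 13.26 in MP, and fell by 0.56 with all arrays (adjusted p = 0.0129), a call lost without LP-1, LP-2 or MP-3. Neutrophil markers were also highest on LP-3, with a list level of 4.66, 4.63 and 5.27 in LP, against 4.75, 4.77 and 4.71 in MP, and no member past the test.

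**Figure D3:**
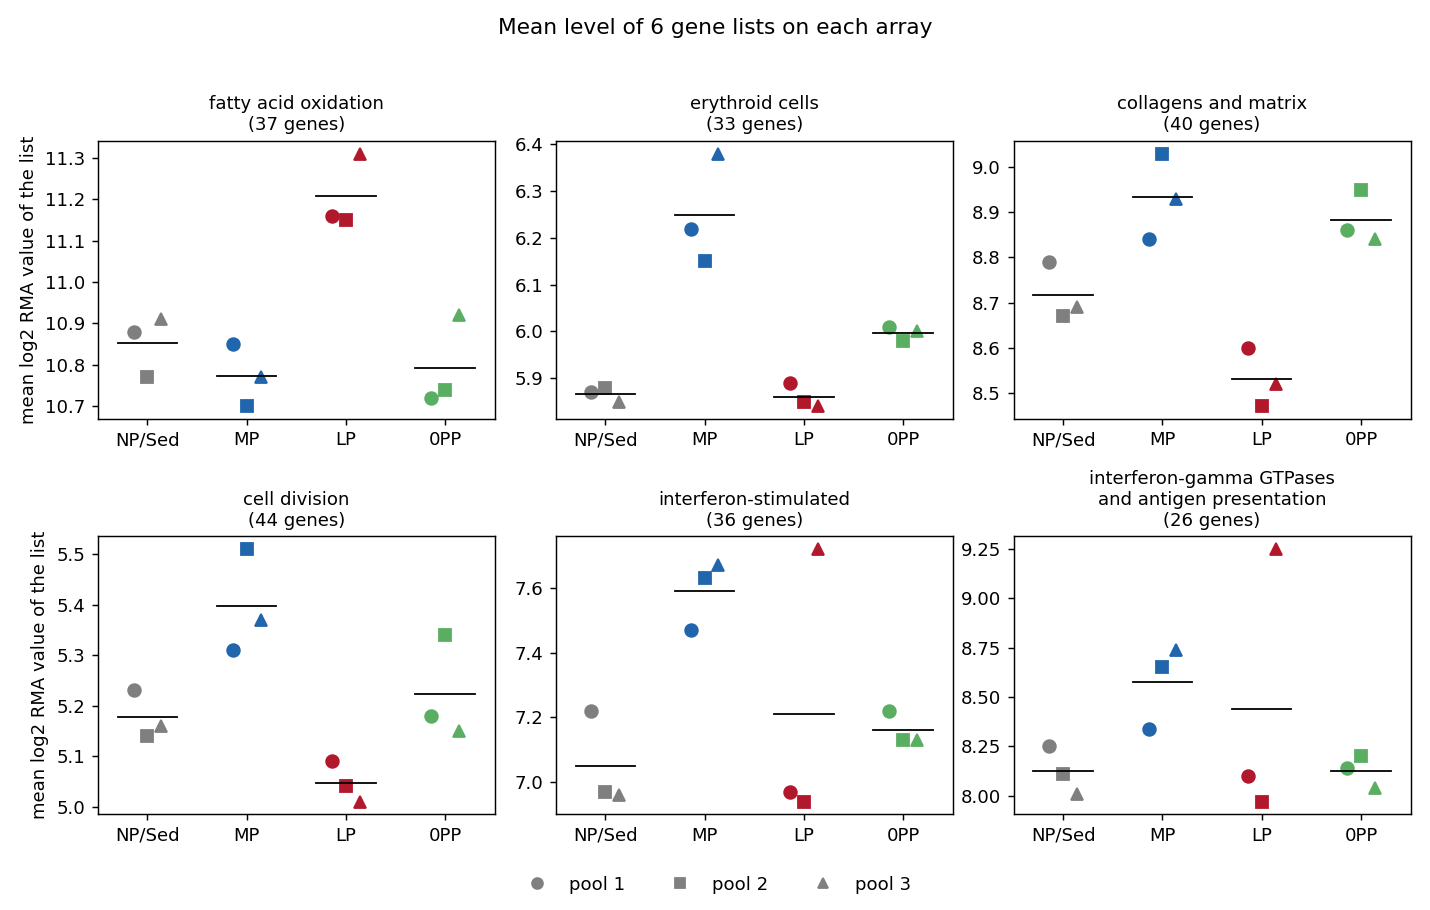
Mean log2 RMA value of the members of 6 gene lists on each of the 3 arrays of 4 stages (NP/Sed, MP, LP and 0PP), with a line at the mean of each group. Fatty acid genes are highest in LP and erythroid genes highest in MP, and in both interferon lists LP-3 lies far above LP-1 and LP-2.

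Among 29 immediate early genes 1 rose and 1 fell, against 1.53% and 1.03% of all genes. Nr4a1, an orphan nuclear receptor induced quickly by stress and hormones, measured 9.09, 7.39 and 8.10 in LP, against 9.32, 9.34 and 10.48 in MP (2.86-fold lower, adjusted p = 0.0217), with LP-1 close to the MP arrays and the call lost without LP-2, LP-3 or MP-3. Ier3, an immediate early gene, moved the other way, with 9.53, 9.41 and 9.58 in LP, against 8.36, 9.19 and 8.48 in MP, a call lost without LP-1, LP-3, MP-1 or MP-3. The other 27 of the 29 measured did not pass.

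Among the other genes called higher, Hsd17b11, a lipid droplet dehydrogenase, measured 10.11, 10.14 and 10.48 in LP, against 9.52, 9.30 and 9.29 in MP (1.83-fold higher, adjusted p = 0.000530). The orphan receptor Gpr160 measured 5.51, 5.18 and 6.11 in LP, against 4.73, 4.38 and 4.61 in MP (2.04-fold higher), and the galectin Lgals4 measured 9.46, 9.60 and 9.21 in LP, against 8.68, 8.44 and 8.43 in MP (1.87-fold higher). Pik3ip1, an inhibitor of PI3-kinase, differed by 0.95 and passed at both probe sets. Its call was lost without MP-3, with the beta-actin covariate and with only the LP and MP arrays in the fit. Igf1, the growth factor upstream of that kinase, measured 7.30, 7.13 and 7.05 in LP, against 7.88, 7.82 and 7.67 in MP, and fell by 0.63 (adjusted p = 0.00540). Both genes belong to the insulin, IGF and mTOR signaling list. Of its 33 measured members 3 rose and 2 fell, against 1.53% and 1.03% of all genes, with a median of 0.08. Ptgds, the prostaglandin D2 synthase, differed by 0.83, with a call lost on leaving out any LP array, MP-2 or MP-3.

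Of 39 sarcomere and Z-disc genes 0 passed, against 2.57% of all genes, a share that would leave a list of this size with few or none. At the probe set of highest mean all LP arrays were above all MP arrays in 7 of them, against 10.6% of all genes. All LP arrays were below all MP arrays in 3 of the 39, against 2356 of all 18193 genes (13%). Those that did not pass include Myh6 (-0.01), the main myosin of the mouse ventricle, and Myh7 (0.71, adjusted p = 0.534), its fetal counterpart. Calcium handling and ion channels likewise had 0 of 37 past the test and heat shock and endoplasmic reticulum stress 0 of 36. In the natriuretic peptide and hypertrophy list 2 of 15 rose, and both act after the peptides are made: Corin, the protease that activates them, measured 10.60, 10.60 and 10.77 in LP, against 10.19, 10.13 and 10.06 in MP, and Npr3, their clearance receptor, measured 7.10, 6.73 and 7.25 in LP, against 6.60, 6.14 and 6.27 in MP. Both calls were lost without LP-3, MP-2 or MP-3, and that of Npr3 also without LP-1. Nppa and Nppb themselves differed by 0.02 and -0.30.

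Cell type markers bear on the label of the tissue. The 20 cardiomyocyte markers averaged 13.16, 13.17 and 13.13 in LP, against 13.15, 13.15 and 13.14 in MP, and 0 passed. Endothelial markers had 1 of 19 higher, Car4, at 8.34, 8.36 and 8.64 in LP, against 7.69, 7.67 and 7.70 in MP. Macrophage markers had 2 of 26 lower, Csf1r (-0.32) and the complement subunit C1qb (-0.55), both lost without LP-2, LP-3, MP-2 or MP-3, and Csf1r also without LP-1. Adipocyte markers had 0 of 20 past the test, with list levels of 6.91 to 7.11 in LP, against 7.00 to 7.23 in MP. Lists of other blood cells did not all move alike. Platelet markers were lower in level, at 5.49, 5.57 and 5.43 in LP, against 5.65, 5.59 and 5.66 in MP (10 of 10 differences negative). So were T, B and natural killer cell markers, at 4.70, 4.78 and 4.70 in LP, against 4.90, 4.84 and 4.91 in MP (13 of 16 negative). Neutrophil markers were below all MP arrays on LP-1 and LP-2 (4.66 and 4.63) and above them on LP-3 (5.27). The part of these blood cells in the erythroid result was not tested. No member passed in these lists or in those for smooth muscle cells and pericytes, skeletal muscle, atrial myocytes, nerve or mesothelium.

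The levels in the other stages place these differences. Of the 24 fatty acid genes that rose, the NP/Sed mean lay between MP and LP but nearer MP in 15, beyond MP in 7 and nearer LP in 2, and the 0PP mean lay nearer MP in 13, beyond MP in 8 and nearer LP in 3. Of the 8 erythroid genes that fell, the NP/Sed mean lay nearer LP in 4 and beyond LP in 4. Their 0PP mean lay nearer MP in 5 and nearer LP in 3. Of the 20 collagen list genes that fell, the NP/Sed mean lay nearer MP in 11 and beyond MP in 1. It lay nearer LP in 6 and beyond LP in 2. Their 0PP mean lay nearer MP in 16, nearer LP in 3 and beyond MP in 1. Among the 10 cell division genes that fell, the NP/Sed mean lay nearer LP in 5, nearer MP in 4 and beyond LP in 1. Of all 279 genes that rose, the NP/Sed mean lay nearer MP in 136 and beyond MP in 61. It lay nearer LP in 66 and beyond LP in 16. The 0PP mean of those 279 lay nearer LP in 124, nearer MP in 107, beyond MP in 26 and beyond LP in 22. Of all 188 that fell, the NP/Sed mean lay nearer LP in 78, nearer MP in 66, beyond LP in 26 and beyond MP in 18. The 0PP mean of those 188 lay nearer MP in 75, nearer LP in 72, beyond MP in 26 and beyond LP in 15. These are positions of group means for genes chosen because LP and MP differ, with no test.

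Genes the study named from these same arrays give counts that are not independent evidence. Of 10 measured genes it listed as raised in MP and lowered after, 3 fell (Ifi27, Nr4a1 and Slc4a1), and all 10 differences were negative (median -0.72). Of 10 it listed as lowered in MP and raised after, 1 rose and 0 fell, with a median of 0.07. The 18 it gave among the strongest in MP mix genes raised and lowered against NP/Sed, so their median of 0.01 has no direction. Of these, 3 fell (Tent5c, Nr4a1 and Alas2), all given as raised in MP, and 1 rose (Klhl24), given as lowered. Of 5 it listed as raised in LP and 0PP, Per2 and Ptgds rose. The 24 measured among its late-pregnancy genes mix both directions too. The 4 that rose (Cyp4b1, Angptl4, Fmo2 and Per2) it gave as raised in LP. The 5 that fell (Col3a1, Col15a1, Ift122, Clasp1 and Auts2) it gave as lowered in LP. The Ift122 call was lost on leaving out any 1 array, that of Clasp1 without LP-1, LP-3 or MP-3 and that of Auts2 without MP-3.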

How the data were processed

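Left ventricular RNA was measured on 18 Affymetrix mouse genome arrays, 3 per group. The authors deposited log2 values made with RMA (background correction, quantile normalization and a summary per probe set over all arrays), with no filter. Quantile normalization gives the probe intensities of every array one distribution before the summary, so a change shared by most genes cannot be seen. The summarised values kept small differences between arrays, with medians from 4.939 (0PP-2) to 5.027 (NP/Sed-3). The 64 control probe sets were left out. Of the rest, 34945 name 1 gene, 932 several and 9160 none in the platform annotation; only those with 1 gene speak for a gene. Symbols were updated through RefSeq gene IDs (34741 matched).

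Linear models with a mean per group were fitted to all 18 arrays in limma 3.58.1 under R 4.3.3 (12 residual and 6.45 prior degrees of freedom), and LP was compared with MP by a two-sided moderated test. The 4 other groups, NP/Sed, 0PP and those given 7 or 21 days of wheel running, lend spread only. A gene was called at an adjusted p under 0.05 and a log2 difference of at least 0.807, the 75% change of the study, which tested with Cyber-T. The fit was tested on simulated data. Named were the 15 called genes of largest change in each direction without overlap, up to 6 members of smallest p in each list, and genes the study named; other list members are given by counts or differences. Members and lists were chosen with earlier results of these data known. Promoters are from RefSeq, build GRCm38.p6. Arrays are few, and their number limits the precision.

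Alternatives were no fold limit, only the LP and MP arrays, a prior with an intensity trend, a minimum mean of 5, median centring, repeated quantile normalization, the brightest or the mean probe set of a gene, the replicate number as a block, the beta-actin covariate, Cyber-T and leaving out each array.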

Additional observations from a re-analysis of the deposited data

How the results depend on the processing

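With all arrays 50 genes were called and 467 passed without the fold limit. Leaving out 1 array in turn gave 27 to 91 called genes and 112 to 491 past the adjusted p: 27 and 112 without MP-3, 91 and 491 without MP-1, 39 and 204 without LP-3, and 269 past without LP-1. Fitting only the 6 LP and MP arrays gave 19 called and 44 past. The mean of a gene's probe sets gave 32 called, a minimum mean of 5 gave 709 past, and the beta-actin covariate gave 169 past. Scaling moved the split of genes past the test, 279 higher and 188 lower, to 336 higher and 142 lower after median centring and to 249 higher and 260 lower after repeated quantile normalization. Cyber-T gave 59 called and 650 past, and the intensity trend 52 and 617. Of the 467 genes 13 had the other sign at their brightest probe set, none past the test there. Fry fell by 0.92 and differed by 0.31 at its brightest, Tubb6 rose by 0.36 and differed by -0.29, and Hnrnpa2b1 rose by 0.36 and differed by -0.02; the cause was not tested.

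Same-numbered LP and MP arrays deviated from their group means with correlations of -0.227, -0.144 and -0.019. The highest among other pairs were 0.188 (LP-1 with MP-2) and 0.166 (LP-2 with MP-1). Deviations cancel within a group, so values of both signs must occur, and they cannot decide whether pools were paired. With the replicate number as a block 48 genes were called and 380 passed. Among the named genes, Alas2, Tent5c, Bpgm, Ehhadh, Acaa2, Acot1, Col1a1, Col3a1, Col15a1, Mfap4, Hsd17b11, Lgals4 and Slc40a1 stayed past the adjusted p under each alternative run, while Pdk4, Ptgds, Txnip, Ier3, Rora, Npr3, Nr4a1, Ube2c, Slc4a1 and Ifi27l2a lost it on leaving out any of 3 to 5 single arrays.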

Other observations

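Genes of RNA processing were among those higher in LP. Of 34 splicing and RNA-binding genes 5 rose and 0 fell, against 1.53% and 1.03% of all genes, with a list median of 0.11. Clk1, a kinase of splicing factors, measured 9.88, 9.85 and 9.99 in LP, against 9.34, 9.39 and 9.18 in MP (log2 difference 0.61, adjusted p = 0.00417), and its relative Clk4 differed by 0.59. The nuclear long noncoding RNA Neat1 measured 11.74, 11.93 and 12.13 in LP, against 11.38, 11.47 and 11.23 in MP. Of 28 ribosome biogenesis and Myc genes 4 rose and 0 fell, with a list median of 0.12. Nucleolin, Ncl, of that list differed by 0.77 at a probe set that passed and by 0.34 at its brightest (adjusted p = 0.186). The calls of Clk4, Neat1 and Ncl were lost without LP-3 or MP-3 and with the beta-actin covariate. That of Neat1 was also lost without LP-2 or MP-1, and that of Ncl also without MP-2. Of the other splicing genes that rose, Hnrnpa2b1 lost its call without LP-1, LP-3 or MP-3. Luc7l2 lost it without MP-2, MP-3 or any 1 LP array. Clk1 stayed past the adjusted p under each alternative run.

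Ubiquitin ligase and proteasome genes showed 3 rises and 1 fall, that of Ube2c, among 32 measured, against 1.53% and 1.03% of all genes. Fbxo31 measured 8.80, 8.85 and 8.93 in LP, against 8.32, 8.36 and 8.25 in MP (adjusted p = 0.00472) and stayed past the adjusted p under each alternative run. Fbxo32, the muscle atrophy ligase atrogin-1, differed by 0.58 at a probe set that passed and by 0.19 at its brightest (adjusted p = 0.456). Desmosomal Dsg2 and Pkp2 were the 2 of 20 intercalated disc genes that rose, each at 1 probe set that was not its brightest. Dsg2 measured 8.39, 8.41 and 8.70 there in LP, against 7.86, 7.98 and 7.89 in MP, a call lost without LP-3 or MP-3, and differed by 0.18 at its brightest probe set. The Pkp2 call (0.37, and 0.08 at its brightest) was lost on leaving out any 1 array.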
